A study of Mus musculus with 6 samples.

Results

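The protocadherin genes were examined in RNA sequencing of endothelial cells grown as primary cultures from the stria vascularis, a vascularized tissue in the lateral wall of the cochlea. By the methods of the study, the stria vascularis was isolated together with the spiral ligament of the same wall. Protocadherin genes were taken as every row of the deposited count table whose gene symbol begins with Pcdh, which gave 71 of 24421 genes. The 3 *Nhe6*-knockout cultures and the 3 wildtype cultures came from mice of these genotypes, and all were untreated. The labels give C57BL/6N as the strain background of both genotypes, whereas the methods of the study name C57BL/6J. Mice were taken on postnatal days 10 to 12, cells from at least 6 mice were pooled in each culture, and all cultures were grown in endothelial medium with 10% fetal bovine serum. The methods of the study state that the cultured cells were sorted by fluorescence and grown on before use. One library was made per culture, so the spread between libraries is the spread between pooled cultures of 1 genotype.

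Protocadherins are cell surface proteins of the cadherin superfamily, with extracellular cadherin repeats, 1 membrane-spanning segment and a cytoplasmic tail. The clustered protocadherins lie in tandem alpha, beta and gamma clusters on mouse chromosome 18. In the alpha and gamma clusters each variable exon has its own promoter and is spliced to constant exons that the whole cluster shares, whereas each beta gene is a single exon. In neurons, single cells choose different sets of variable exons, with the help of CTCF, cohesin and DNA methylation at the promoters, and the resulting proteins bind only cells that carry the same set. The non-clustered protocadherins are separate genes, among them the delta-1 and delta-2 families, and bind between cells and to cadherins of the same cell. Outside the nervous system, *Pcdh12* encodes VE-cadherin-2 of endothelial cells, and *Pcdh15* encodes a part of the tip links of cochlear hair cells.

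Of the 71 genes, 15 were alpha, 22 were beta, 12 were gamma A, 7 were gamma B and 3 were gamma C genes. Of the single genes, 4 were delta-1 genes (*Pcdh1*, *Pcdh7*, *Pcdh9* and *Pcdh11x*), 5 were delta-2 genes (*Pcdh8*, *Pcdh10*, *Pcdh17*, *Pcdh18* and *Pcdh19*) and 3 belonged to neither family (*Pcdh12*, *Pcdh15* and *Pcdh20*). A read was counted on 64 of the 71 genes, and 51 genes had enough counts to be tested. All 22 gamma genes and 18 of 22 beta genes were tested, in contrast to 1 of 15 alpha genes. Genes listed at 0 in each library were *Pcdha2*, *Pcdha3*, *Pcdha4*, *Pcdha6*, *Pcdha7*, *Pcdha7-g* and *Pcdhb1*. By sampling alone, a count of 0 allows up to 3 reads per library. Reads on exons of several genes are in no gene count, and only 494 exon bases of *Pcdha4* (8.56%) are shared with no other gene. *Pcdh12*, the endothelial VE-cadherin-2 gene, had 5 reads in the 6 libraries together and at most 2 in 1 library, so it could not be compared between genotypes at this depth.

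Each library held 25587097 to 29126232 reads assigned to genes. Normalized counts are counts scaled to the mean library size with the TMM factors of edgeR, and log2 fold changes are of *Nhe6*-knockout over wildtype. On the first principal component, wildtype replicate 2 lay far from the other 5 libraries (106 against -28.5 to -6.52), and results that rest on it are given with and without it. *Nhe6*-knockout replicates 1 and 2 were the closest pair, with a mean chi-square of 4.91 per gene against 90.1 to 398 in the other pairs of 1 genotype, still above sampling noise, and were kept as 2 samples. Of the endothelial markers that define the labelled cell type, *Cldn5* was listed at 0, and *Pecam1* and *Tie1* had at most 10 counts in any library. Other endothelial markers were present, with 410 to 18393 normalized counts of *Emcn*, 867 to 5081 of *Eng* and 189 to 1006 of *Tek*. Of the 12 endothelial markers listed, 7 had enough counts to be tested. *Cdh5*, which encodes VE-cadherin, had 179 to 232 in *Nhe6*-knockout and 2509 to 5200.0 in wildtype cultures. The 12 endothelial markers summed to between 7948 and 24150.0 normalized counts, and 10 fibroblast markers to between 264113 and 389376. Fewer cells of a type and less RNA per cell cannot be told apart in these bulk cultures.

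Protocadherin reads made up between 0.118% and 0.187% of the gene counts of a library. To compare genes with each other, counts were divided by the length of exon sequence that a gene shares with no other gene of the same strand, in kilobases, after scaling with TMM to CPM (counts set to the same total in every library). This own exon sequence was 33.2 to 68.5% of the exon bases of a gamma gene and 8.56 to 51.4% of an alpha gene, since reads on the shared constant exons lie on many genes at once and go to a separate line of ambiguous reads. It was at least 90.3% for beta genes and 100% for the single genes. Alpha and gamma counts are thus mainly counts of variable exons.

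On this length-scaled measure the highest protocadherin was *Pcdhgc3*, a C-type gamma isoform, with 97.3, 105 and 102 in *Nhe6*-knockout and 75.5, 131 and 79.2 in wildtype cultures. Its lowest library was above the highest library of each other protocadherin. Next came *Pcdh19*, an X-linked delta-2 gene whose protein acts together with N-cadherin, between 19.8 and 45.6 in the 6 libraries. *Pcdh7*, a delta-1 gene whose tail binds protein phosphatase 1 alpha, followed between 13.4 and 32.0. *Pcdh18*, a delta-2 gene, was between 12.5 and 26.9, and *Pcdh9*, a delta-1 gene, between 7.18 and 17.9. The ranges of *Pcdh19*, *Pcdh7*, *Pcdh18* and *Pcdh9* were not separate, because the lowest library of each lay below the highest library of the next. *Pcdhga7* was the highest gamma A gene, between 9.98 and 22.8, and *Pcdhgb6* the highest gamma B gene by mean normalized count, between 1.43 and 12.6. Among beta genes *Pcdhb16* had the highest mean normalized count, with a length-scaled level of 1.75 to 4.25. *Pcdh1* was between 1.99 and 5.42, and *Pcdh10* between 0.144 and 0.540. By their median over the libraries, gamma A genes reached from 1.25 (*Pcdhga9*) to 14.8 (*Pcdhga7*), gamma B genes from 0.414 (*Pcdhgb8*) to 9.60 (*Pcdhgb6*) and beta genes from 0 (*Pcdhb1*) to 2.79 (*Pcdhb16*). The other gamma C genes, *Pcdhgc4* and *Pcdhgc5*, had medians of 0.641 and 0.607, far below *Pcdhgc3* of the same type. *Pcdh11x*, an X-linked delta-1 gene, and *Pcdh17*, a delta-2 gene, had medians of 0.0561 and 0.0864. The delta families thus held members with levels far apart in each library, as the plot of length-scaled levels shows.

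**Figure D1:**
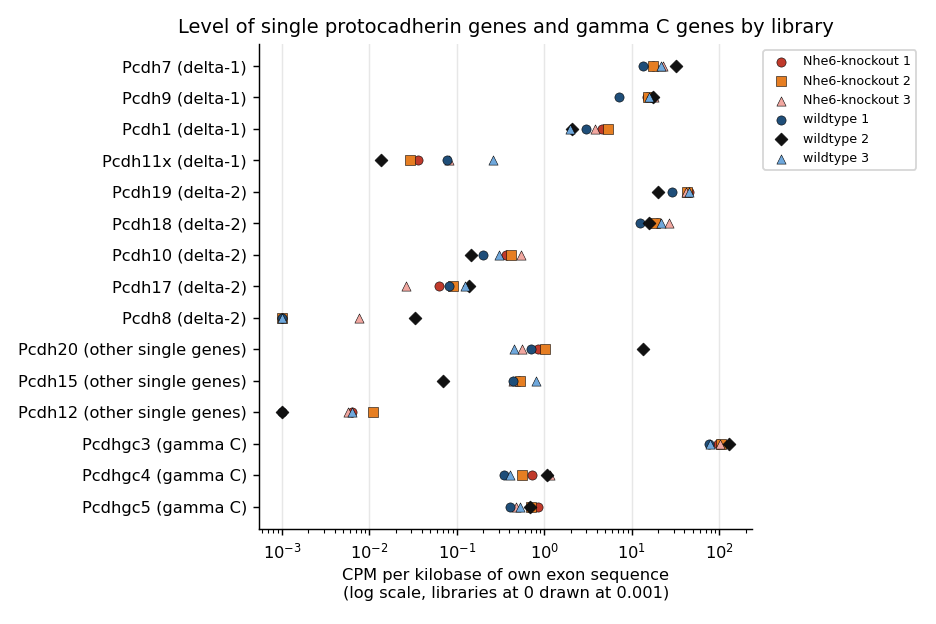
Each point is 1 library, and the horizontal log axis gives CPM per kilobase of own exon sequence for the 12 single genes and the 3 gamma C genes. *Pcdhgc3* lies to the right in all libraries (75.5 to 131), and wildtype replicate 2 stands alone for *Pcdh20* (13.3) and *Pcdh15* (0.0693).

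The stretches upstream of *Pcdh19* and *Pcdh10* are shown because *Pcdh19* had the highest level of the single genes and *Pcdh10* was the delta-2 gene whose genotypes did not overlap. Each stretch holds the 250 bases before the RefSeq start (GRCm38.p6), read 5′ to 3′ along the gene, with CpG pairs in capitals. *Pcdh19* lies on the minus strand of chromosome X (stretch at chrX:133688994-133689243) and *Pcdh10* on the plus strand of chromosome 3 (stretch at chr3:45378148-45378397).
Pcdh19: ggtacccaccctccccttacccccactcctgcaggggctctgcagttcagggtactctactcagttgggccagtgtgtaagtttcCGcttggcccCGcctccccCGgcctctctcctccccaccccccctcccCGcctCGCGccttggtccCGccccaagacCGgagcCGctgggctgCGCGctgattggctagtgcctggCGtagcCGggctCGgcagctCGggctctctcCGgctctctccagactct
Pcdh10: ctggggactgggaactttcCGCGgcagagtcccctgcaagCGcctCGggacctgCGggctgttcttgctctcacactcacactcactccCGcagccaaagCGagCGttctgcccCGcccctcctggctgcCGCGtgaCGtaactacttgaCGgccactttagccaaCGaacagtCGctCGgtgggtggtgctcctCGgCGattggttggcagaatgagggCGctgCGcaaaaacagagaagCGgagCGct
The *Pcdh19* stretch held 16 CpG pairs and 69.2% G and C bases, and the *Pcdh10* stretch held 22 CpG pairs and 63.2%. Over 32851 RefSeq starts the median was 6 CpG pairs, with quartiles at 2 and 16. Both stretches were at or above the upper quartile in CpG pairs. The letters TATAAA, searched on both strands, were in neither stretch and in 12.4% of all stretches, and CCAAT, searched on both strands, was in both and in 33.8% of all stretches.

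The summed counts of each protocadherin group were then set side by side by genotype, as a description without a test. The 22 beta genes summed to 2033, 1967 and 3204 normalized counts in *Nhe6*-knockout and to 1841, 2409.6 and 3017 in wildtype cultures, so the genotypes overlapped, with means of 2401 ± 696 and 2422 ± 589 (SD, n = 3). The 19 gamma A and B genes had means of 8187 ± 1299.5 and 8649.8 ± 1182 (SD, n = 3). The gamma C genes, whose reads came almost wholly from *Pcdhgc3*, had means of 9622 ± 355 and 8988 ± 2923 (SD, n = 3). The delta-1 sum was 9746 ± 1034 in *Nhe6*-knockout and 9626 ± 3544 in wildtype cultures (SD, n = 3), and both the beta and the delta-1 ranges overlapped. For delta-2 genes, *Nhe6*-knockout cultures had 16209.7, 15391 and 16152 normalized counts, and wildtype cultures had 10301, 8118 and 16257. The wildtype libraries spread over a wide range here, and the highest of them exceeded all *Nhe6*-knockout libraries. Alpha genes summed to 399 in wildtype replicate 2 and to between 17.6 and 69.1 in the other 5 libraries, and the 3 genes outside both delta families to 2062 against 376 to 596. All protocadherins together had 46364 ± 3227 normalized counts in *Nhe6*-knockout and 42412 ± 8128 in wildtype cultures (SD, n = 3).

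**Figure D2:**
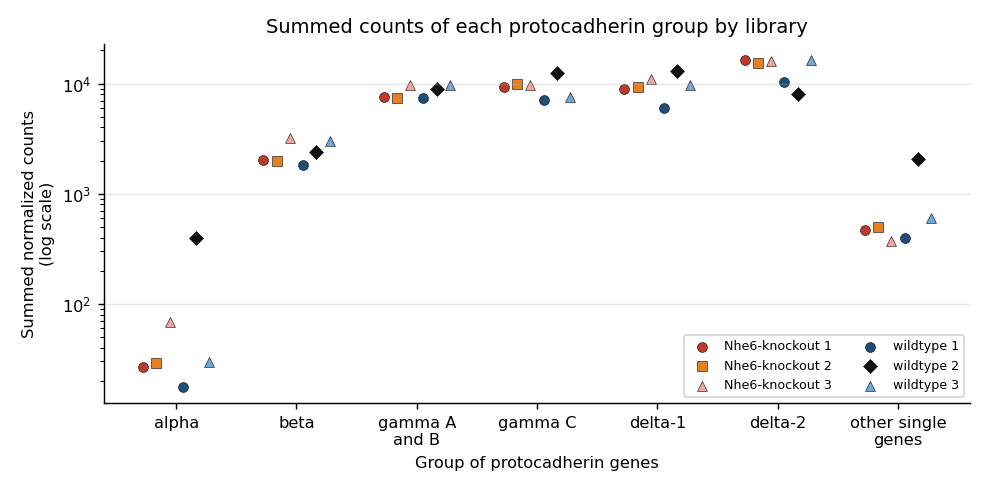
Summed normalized counts on a log axis for 7 groups of protocadherin genes, with 1 point per library. The genotypes overlap in each group, and wildtype replicate 2 lies above the other libraries for alpha genes (399) and for the 3 other single genes (2062).

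The genotypes were compared gene by gene, to see whether any protocadherin differed by more than the spread between cultures. No protocadherin passed the threshold of 0.05 on the adjusted p of edgeR's quasi-likelihood test, as 0 of 51 tested genes did, where 0.0668% of all 13479 tested genes passed. The smallest adjusted p among them was 0.0952, for *Pcdhgb5*. An unadjusted p under 0.05 was found for 6 of 51 genes, the same share (11.8%) as among all tested genes (11.8%). The 3 with lower values in *Nhe6*-knockout cells were *Pcdhgb5*, *Pcdhb14* and *Pcdhb9* (5.88% of 51, against 5.71% of all genes), and the 3 with higher values were *Pcdh1*, *Pcdhga9* and *Pcdh10* (5.88% against 6.14%). The libraries of the genotypes did not overlap for 7 of 51 genes (13.7%), against 19.9% of all genes, with 3 lower (9.57% of all genes were) and 4 higher (10.3% of all genes were). Log2 fold changes were below 0 for 25 and above 0 for 26 genes, with a median of 0.024, whereas 51.9% of all genes were below 0, with a median of -0.016. Without wildtype replicate 2, 1 of 52 tested protocadherins passed (*Pcdhgb5*), against 2.88% of all genes, and 12 had an unadjusted p under 0.05 (23.1% against 19.5%). In DESeq2's Wald test on all 6 libraries, 3 of 51 passed (*Pcdhgb5*, *Pcdh1* and *Pcdhga9*), against 4.65% of all genes. With *Nhe6*-knockout replicates 1 and 2 summed into 1 library, 0 of 53 passed in edgeR, against 0.00731% of all genes, and 4 had an unadjusted p under 0.05 (7.55% against 6.19%).

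**Figure D3:**
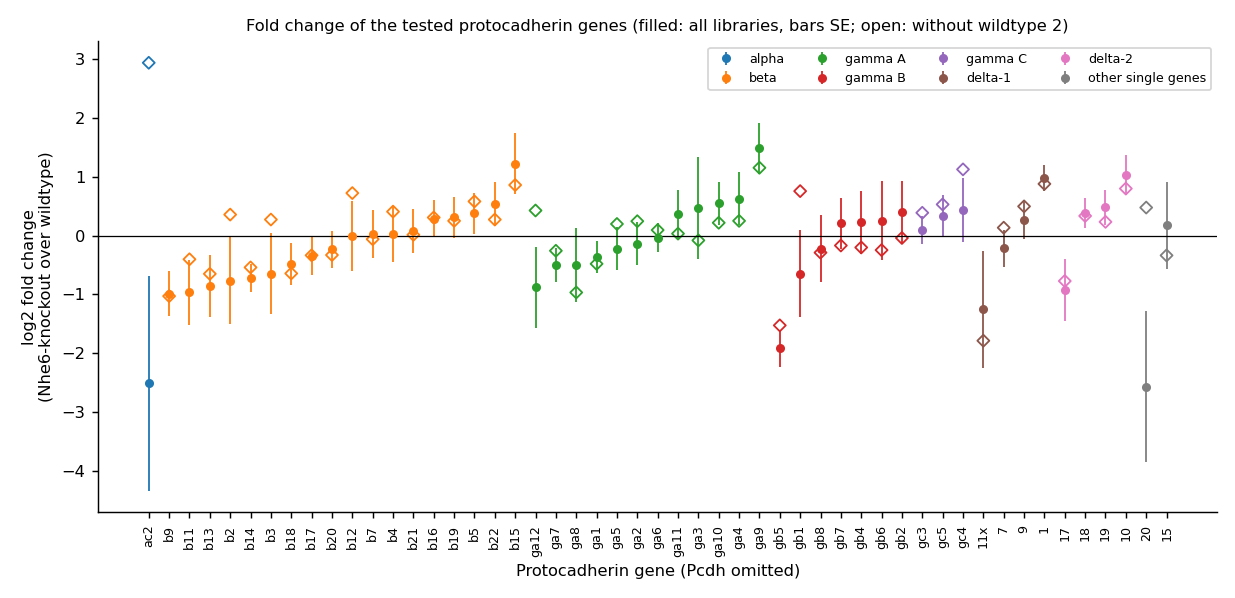
Log2 fold change of *Nhe6*-knockout over wildtype for the 51 tested protocadherins, with filled points and SE bars from edgeR on 6 libraries and open points from the fit without wildtype replicate 2. Points lie on both sides of 0 in the beta and gamma groups, and the open and filled points of *Pcdhac2* (2.93 and -2.51) and *Pcdh20* (0.48 and -2.57) have opposite signs.

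Among the gamma genes, *Pcdhgb5* had the smallest p of all protocadherins. This gamma B gene, whose variable exon carries the extracellular part of 1 isoform, spans bases 37731009 to 37841873 of chromosome 18 (GRCm38) and shares its last exons with the other gamma genes. Normalized counts were 149.8, 145 and 170.4 in *Nhe6*-knockout and 405, 869.9 and 486 in wildtype cultures. All *Nhe6*-knockout libraries were below all wildtype libraries, and wildtype replicate 2 was the highest. Its log2 fold change was -1.92 (SE 0.32, adjusted p = 0.0952 in edgeR). Without wildtype replicate 2 the value was -1.53 (SE 0.19) with an adjusted p of 0.0239 in edgeR, and DESeq2 on all libraries gave -1.92 with an adjusted p of 9.9e-06. With *Nhe6*-knockout replicates 1 and 2 summed, edgeR's adjusted p was 0.462, and over 14 alternatives it ranged from 9.9e-06 to 0.471.

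*Pcdhga9* is the next gamma gene downstream of *Pcdhgb5* on the chromosome and had the opposite sign. It had 189, 185 and 147 normalized counts in *Nhe6*-knockout and 62.6, 31.0 and 93.1 in wildtype cultures, with all *Nhe6*-knockout libraries above all wildtype libraries. The log2 fold change was 1.48 (SE 0.43, adjusted p = 0.253 in edgeR), and 1.15 without wildtype replicate 2 (adjusted p = 0.0955). DESeq2 gave an adjusted p of 0.0310, in a range of 0.0310 to 0.755 over 14 alternatives. The 2 neighbours thus had opposite signs within 1 cluster whose genes share constant exons.

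*Pcdhga7*, the gamma A gene with the most reads, had 852, 872 and 1446 normalized counts in *Nhe6*-knockout and 1153, 1949 and 1366 in wildtype cultures. The genotypes overlapped, with a log2 fold change of -0.50 (SE 0.29, adjusted p = 0.564 in edgeR). *Pcdhgb6* had 663, 643 and 702 against 694, 101 and 889, and its sign turned from 0.25 to -0.25 without wildtype replicate 2, the lowest library. *Pcdhgc3* had 9065, 9801 and 9508 against 7037, 12168 and 7379.6 normalized counts. Wildtype cultures lay on both sides of the *Nhe6*-knockout cultures, and the log2 fold change was 0.094 (SE 0.24, adjusted p = 0.916 in edgeR). Over all 22 gamma genes, 10 had a log2 fold change below 0 and 12 above 0.

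Among the delta-1 genes, *Pcdh1* had 1095, 1313 and 929.6 normalized counts in *Nhe6*-knockout and 726, 497 and 481 in wildtype cultures. *Pcdh1* encodes an adhesion protein of epithelia and endothelia that certain hantaviruses use as a receptor. All *Nhe6*-knockout libraries were above all wildtype libraries, with a ratio of means of 1.96 and a log2 fold change of 0.97 (SE 0.22, adjusted p = 0.156 in edgeR). Without wildtype replicate 2 it was 0.88 (adjusted p = 0.117), and DESeq2 gave an adjusted p of 0.00734, in a range of 0.00734 to 0.597 over 14 alternatives. *Pcdh7* had 5076, 5121 and 6614 in *Nhe6*-knockout and 3927, 9340.2 and 6252 in wildtype cultures, and *Pcdh9* had 2802, 2883 and 3348 against 1342, 3265 and 2912. Both overlapped between genotypes, with log2 fold changes of -0.22 (SE 0.32, adjusted p = 0.848 in edgeR) and 0.26 (SE 0.32, adjusted p = 0.809 in edgeR).

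Of the delta-2 genes, *Pcdh10*, which recruits the WAVE actin complex and is silenced by promoter methylation in several tumors, had 159, 184 and 237 normalized counts in *Nhe6*-knockout and 88.0, 62.9 and 134 in wildtype cultures. The genotypes did not overlap, and the log2 fold change was 1.03 (SE 0.35, adjusted p = 0.324 in edgeR). *Pcdh19* had 13157, 12430.0 and 11932 in *Nhe6*-knockout and 8330.3, 5703 and 12877 in wildtype cultures. The *Nhe6*-knockout libraries were close together, and the wildtype libraries reached from far below them to among them, with a log2 fold change of 0.48 (SE 0.29, adjusted p = 0.595 in edgeR). *Pcdh18*, whose protein binds the adaptor Dab1, had 2871, 2745 and 3973 against 1853, 2299 and 3202 normalized counts. Here too the genotypes overlapped (0.38, SE 0.25, adjusted p = 0.614 in edgeR). *Pcdh8* had 5 reads in all and was not tested.

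Among the beta genes, *Pcdhb14*, *Pcdhb9* and *Pcdhb15* did not overlap between genotypes, and 3 of 18 tested beta genes is 16.7%, against 19.9% of all genes. *Pcdhb14* had 167, 165 and 186 normalized counts in *Nhe6*-knockout and 217, 355 and 285 in wildtype cultures, lower in each *Nhe6*-knockout library, with an adjusted p of 0.301 in edgeR. *Pcdhb9* had 12.7, 11.2 and 18.9 against 27.4, 26.8 and 31.0, with a log2 fold change of -0.99 (SE 0.38, adjusted p = 0.387 in edgeR). Its counts were low, so 1 read moves them by several percent. *Pcdhb15* had the opposite sign, with 102, 75.3 and 135 in *Nhe6*-knockout and 44.0, 19.6 and 70.6 in wildtype cultures (log2 fold change 1.22, SE 0.52, adjusted p = 0.430 in edgeR). *Pcdhb16*, next to *Pcdhb15* on the chromosome and the beta gene with the most reads, overlapped, with 410.0, 366 and 612 in *Nhe6*-knockout and 252, 394 and 493 in wildtype cultures (0.28, SE 0.31, adjusted p = 0.786 in edgeR).

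**Figure D4:**
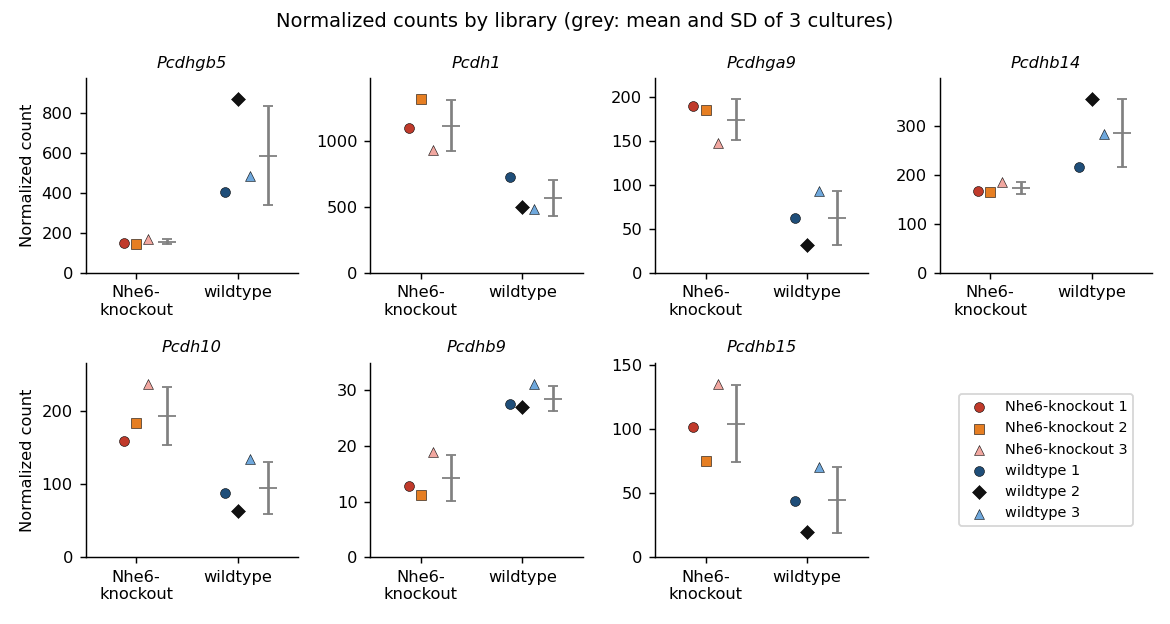
Normalized counts by library for the 7 protocadherins whose genotypes do not overlap, with 1 point per culture and the mean and SD of 3 cultures in grey. *Pcdhgb5*, *Pcdhb14* and *Pcdhb9* are lower and *Pcdh1*, *Pcdhga9*, *Pcdh10* and *Pcdhb15* are higher in all *Nhe6*-knockout libraries. None had an adjusted p under 0.05 in edgeR on 6 libraries.

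Some fold changes had a direction that rested on wildtype replicate 2. Without it the sign turned for 18 of 51 protocadherins (35.3%, against 17.8% of all genes), of which *Pcdh20*, *Pcdhac2* and *Pcdh15* are described here. *Pcdh20*, a single gene, had 129, 155 and 85.2 normalized counts in *Nhe6*-knockout and 108, 2016 and 68.5 in wildtype cultures. Its log2 fold change of -2.57 (SE 1.29, adjusted p = 0.496 in edgeR) became 0.48 without wildtype replicate 2. *Pcdhac2*, the only alpha gene with enough counts, stood at 283 in wildtype replicate 2, and the other wildtype libraries had 0 and 4.28. The *Nhe6*-knockout libraries had 9.56, 17.7 and 22.7, and the fitted log2 fold change turned from -2.51 to 2.93 without wildtype replicate 2, a value that depends on the few reads of the remaining wildtype libraries. Of the alpha genes with too few counts to be tested, *Pcdha12* had 74 of 116 reads and *Pcdha5* had 28 of 43 reads in the same library, both chosen after their values were seen. *Pcdh15*, the tip link gene, had 45.4 in wildtype replicate 2 and between 289.7 and 526 in the other libraries.

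The composition of the gamma A and B genes also set this library apart. Each gene was expressed as a share of all gamma A and B reads of its library, of which there were between 7079 and 10230, and 95% Wilson intervals, which cover counting error only, had half-widths of at most 0.865 percentage points. In wildtype replicate 2, *Pcdhga3* had 0.505% of the reads, against 7.59 to 9.21% in the other 5 libraries. *Pcdhgb1* had 10.7% against 1.89 to 3.52%, and *Pcdhga12* had 11.4% against 2.14 to 3.69%. Wildtype replicate 2 lay outside the range of the other 5 libraries for the shares of 17 of 19 genes. It was above in 7 and below in 10, the exceptions being *Pcdhga1* and *Pcdhgb8*. Shares of 1 total are tied to each other, and the same count over all genes or for another library is not given here. The genes named in these comparisons by share were chosen after their values were seen.

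A few isoforms held most of the gamma A and B reads in wildtype replicate 2. Its 6 highest genes held 77.5% of the reads, in contrast to 52.1 to 56.9% in the other libraries, with *Pcdhga7* first in all 6 libraries (21.7% against 11.3 to 15.7%). The effective number of genes, the inverse of the summed squared shares, was 8.43 against 12.8 to 14.4. Across the 19 genes, the correlation of log2(normalized count + 1) between 2 libraries was 0.445 to 0.533 in the 5 pairs with wildtype replicate 2 and 0.863 to 0.993 in the 10 pairs without it, a description over genes that share a cluster. Over the 13428 tested genes that are no protocadherins, the values were 0.893 to 0.917 and 0.938 to 0.991. In pairs without wildtype replicate 2, gamma A and B correlations were 0.959 to 0.993 within a genotype and 0.863 to 0.899 across genotypes. Over the genes that are no protocadherins, these were 0.968 to 0.991 and 0.938 to 0.957. Correlations over 19 genes of 1 cluster and over this far larger set are not like for like. In normalized counts, wildtype replicate 2 was over 2-fold above or below each other library for 11 of 19 gamma A and B genes (57.9%) and for 18 of 51 protocadherins (35.3%), against 10.2% of all genes. The same held for 2 of 51 in wildtype replicate 1 (1.71% of all genes), for 1 of 51 in *Nhe6*-knockout replicate 3 (0.824% of all genes) for 1 of 51 in wildtype replicate 3 (1.45% of all genes) and for 0 of 51 in *Nhe6*-knockout replicates 1 and 2.

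In the other 5 libraries the shares of most gamma genes lay closer together. The highest share was 1.21 to 1.86 times the lowest for 15 of the 19 genes, and 2.67 to 3.14 times for *Pcdhga8*, *Pcdhgb5* and *Pcdhga9*, which lie next to each other, and for *Pcdhgb8*, which had few reads. *Pcdhgb5* had a share of 1.76 to 1.99% in the *Nhe6*-knockout libraries and of 5.05 to 9.67% in the wildtype libraries. *Pcdhga9* had 1.52 to 2.51% against 0.344 to 0.967%. These shares separated the genotypes in the same directions as the counts did. They are made from the same counts and are no separate evidence.

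**Figure D5:**
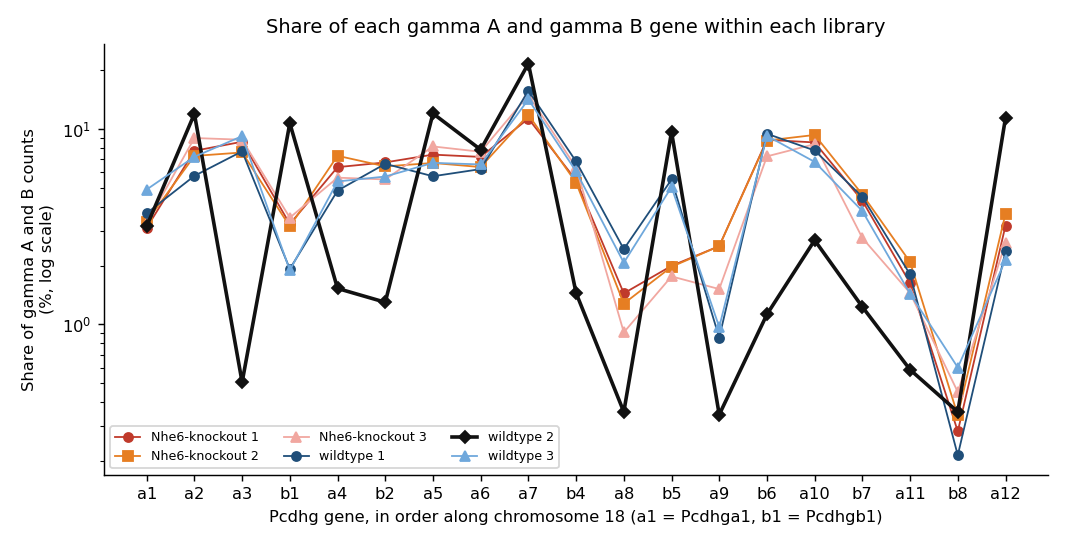
Share of each gamma A and gamma B gene in all gamma A and B counts of its library, on a log axis, with genes in their order along the chromosome and 1 line per library. The line of wildtype replicate 2 crosses those of the other 5, with 0.505% for *Pcdhga3* and 11.4% for *Pcdhga12*, and the genotypes part at *Pcdhgb5*.

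In the beta cluster each gene is a single exon with its own promoter. Correlations over the 18 tested beta genes were 0.798 to 0.860 in pairs with wildtype replicate 2 and 0.919 to 0.980 in pairs without it. Wildtype replicate 2 was over 2-fold apart from each other library for 4 of 18 beta genes (22.2%, against 10.2% of all genes). *Pcdhb22* had 6.98% of the beta reads in it, below the 13.6 to 17.1% of the other libraries. *Pcdhb16* had 16.5%, within the 13.8 to 20.3% of the others. Wilson intervals of these shares had half-widths of at most 1.81 percentage points.

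Sums of several cell type marker lists were highest or lowest in wildtype replicate 2. The 10 mural markers, genes of pericytes and smooth muscle, summed to 35247 normalized counts in it and to between 16268 and 24348 in the other libraries. The 10 fibroblast markers summed to 389376 against 264113 to 287405, the 12 endothelial markers to 7948 against 15712 to 24150.0, and the 6 macrophage markers in the table to 61.9 against 384 to 1038. The 10 neuron and glia markers, in cells where clustered protocadherins are best known, summed to between 532 and 1027 with wildtype replicate 2 inside this range, and *Rbfox3* was listed at 0. The 6 melanocyte markers summed to 286 in it and to between 392 and 1118 in the others. The markers of a list did not move together. Of the 10 mural markers 3 were highest in wildtype replicate 2 (*Acta2*, *Tagln* and *Cspg4*) and 4 were lowest (*Pdgfrb*, *Rgs5*, *Des* and *Abcc9*). Most of the mural sum's difference lay in *Acta2*, with 16275 normalized counts in it and 29.3 to 1204 in the others. Of the 10 fibroblast markers 4 were highest in it (*Col1a1*, *Col1a2*, *Fn1* and *Thy1*), and the other 6 were lowest. Of the 12 endothelial markers 5 were highest in it, *Cdh5* and *Tek* among them, and 4 were lowest, among them *Emcn* and *Eng*. The share of all genes that were highest or lowest in wildtype replicate 2 is not given here. This library was over 2-fold above or below each other library for 10.2% of all genes. The part of the listed cell types in the protocadherin values was not tested.

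Cell cycle and some cell type markers moved with the genotype. All 10 cell cycle markers had a log2 fold change above 0, and their sum was between 7079 and 12691 normalized counts in *Nhe6*-knockout and between 2162 and 3386 in wildtype cultures, without overlap. In edgeR, 0 of these 10 passed after adjustment and 9 had an unadjusted p under 0.05 (90%, against 11.8% of all genes). Without wildtype replicate 2, 7 of them passed (70%, against 2.88% of all genes), and in DESeq2 8 passed (80%, against 4.65%). Of the 10 genes, 8 were higher in *Nhe6*-knockout without overlap (80%, against 10.3% of all genes). *Cdh5* fell in *Nhe6*-knockout cultures, with a log2 fold change of -4.15 (SE 0.31, adjusted p = 0.0133 in edgeR). The endothelial list did not fall as a whole. Of its 7 tested markers, *Cdh5* included, 3 had a log2 fold change below 0 and 4 above 0, with a median of 0.092. Of the 10 mural markers 5 were higher in *Nhe6*-knockout without overlap (50%, against 10.3% of all genes), and 0 passed after adjustment in edgeR, with 2 at an unadjusted p under 0.05 and 1 passing in DESeq2. Of the 10 fibroblast markers *Dcn* and *Col3a1* were higher without overlap (20%, against 10.3% of all genes), with a log2 fold change of 1.00 (adjusted p = 0.0952 in edgeR) for *Dcn*. In this list 3 log2 fold changes were below 0 and 7 above 0, with a median of 0.088. The lowest was -3.35, and -0.70 without wildtype replicate 2. In edgeR, 1 was lower and 1 higher at an unadjusted p under 0.05 (20%, against 11.8% of all genes). The part of these markers in the values of *Pcdhgb5*, *Pcdhga9*, *Pcdh1* and *Pcdh10*, which also separated the genotypes, was not tested.

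Genes that work with protocadherins were described from 3 lists, in all 56 genes of which 53 were tested. In edgeR, 0 of 53 passed after adjustment (0.0668% of all genes did) and 2 had an unadjusted p under 0.05, both higher in *Nhe6*-knockout cells (3.77% against 11.8% of all genes). Both were regulators of cluster promoters, a list of 23 tested genes with a median log2 fold change of -0.030. *Dnmt1*, the maintenance DNA methyltransferase, had 1713, 1890.4 and 1699 normalized counts in *Nhe6*-knockout and 1018, 1447 and 1201 in wildtype cultures (log2 fold change 0.53, SE 0.16, adjusted p = 0.262 in edgeR). *Rest*, a repressor of neuronal genes, had 1503, 1444 and 1734 against 743, 1138 and 1219 (0.59, SE 0.21, adjusted p = 0.345 in edgeR). Both were higher in each *Nhe6*-knockout library than in any wildtype library. Of the 53 tested partner genes, 8 did not overlap between genotypes (15.1%, against 19.9% of all genes), 3 lower and 5 higher. *Stag2*, a cohesin subunit, overlapped between the genotypes (-0.28, SE 0.17, adjusted p = 0.597 in edgeR).

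The 20 tested cytoplasmic partners and shedding genes had 0 with an unadjusted p under 0.05 in edgeR and a median log2 fold change of 0.00048. The smallest p values among them were those of *Fyn*, a kinase (0.35, SE 0.17, adjusted p = 0.496 in edgeR), *Cdh2*, the N-cadherin that pairs with PCDH19 (0.73, SE 0.47, adjusted p = 0.611 in edgeR), and *Psen2*, of gamma-secretase (-0.35, SE 0.25, adjusted p = 0.650 in edgeR). *Cdh2* had 5269, 5111 and 7558 normalized counts in *Nhe6*-knockout and 1953, 6419.8 and 2416 in wildtype cultures. Wildtype replicate 2 was the only wildtype library among the *Nhe6*-knockout values, and without it *Cdh2* had a log2 fold change of 1.45 and passed the threshold. Of the 10 tested WAVE complex genes, which *Pcdh10* and *Pcdh19* proteins bind, 0 had an unadjusted p under 0.05 in edgeR, with a median log2 fold change of -0.043. Of these 10 genes, 3 did not overlap between genotypes (30%, against 19.9% of all genes), 1 lower and 2 higher. *Wasf1* was higher in each *Nhe6*-knockout library (0.47, SE 0.20, adjusted p = 0.429 in edgeR). *Brk1* was lower in each (-0.22, SE 0.13, adjusted p = 0.567 in edgeR), and *Nckap1* overlapped (-0.37, SE 0.21, adjusted p = 0.554 in edgeR). Without wildtype replicate 2, 3 of 53 partner genes passed (*Cdh2*, *Nlgn1* and *Cyfip2*), against 2.88% of all genes.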

How the data were processed

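RNA sequencing of 6 untreated primary cultures was analysed, 3 per genotype and each as 1 library. Per the labels, libraries were stranded and enriched for polyA, and 75 bp reads were sequenced. The submitters' processing notes name mm10, bcl2fastq 2.20.0.422, STAR 2.7.7a, HTSeq 0.13.5 and DESeq2 1.26.0, and the annotation release is not given in the sources used here. The authors deposited raw counts of reads per gene symbol, with 5 summary lines that held 22.2% of the reads and were left out. Reads that lie on exons of several genes are ambiguous to the counter (0.333 to 0.405% of reads) and are in no gene count.

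Genes were filtered with filterByExpr (minimum count 10), normalized with TMM (factors 0.976 to 1.03) and compared in edgeR 4.0.16 (R 4.3.3) by its two-sided quasi-likelihood test, with genotype alone in the design, Benjamini-Hochberg adjustment over 13479 genes and a threshold of 0.05. SE is the log2 fold change divided by the square root of F. With 3 cultures against 3, an exact permutation test could not go below 0.1. Exon lengths came from GENCODE M21 (GRCm38), to which 68 of 71 members matched. The tests were tried on simulated counts without an outlying library or a close pair of libraries, so that trial does not cover these features of the data.

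Alternatives were RLE and upper-quartile scaling, no filter, at least 10 counts in every library, DESeq2 1.42.0, limma-voom (limma 3.58.1), a replicate block, leaving out each library and, added after seeing the data, summing *Nhe6*-knockout replicates 1 and 2. Members with the value in every library were those with an adjusted p under 0.05 in the full fit or without 1 library, an unadjusted p under 0.05 or no overlap, the most abundant of each group, single genes averaging at least 100 normalized counts, and *Pcdhb14*. Partner genes with an adjusted p under 0.05 and the 3 of each list with the smallest p were also named. Members and lists were chosen with earlier results of these data known. Quantitative PCR, permeability and protein measurements were not analysed here, and the check of the targeted gene is not reported here.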

Additional observations from a re-analysis of the deposited data

How the results depend on the processing

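The number of protocadherins past the threshold was 0 with RLE or upper-quartile scaling, with either filter, with limma-voom and with *Nhe6*-knockout replicates 1 and 2 summed, 3 with DESeq2, and 0 to 1 without 1 library, the 1 being *Pcdhgb5* without wildtype replicate 2. Over all genes it was 9 in edgeR and became 21 without a filter, 21 with at least 10 counts in every library, 627 with DESeq2, 1 with the 2 replicates summed and 0 to 395 without 1 library, the 395 without wildtype replicate 2 and 0 to 4 without another library. Of the partner genes, 0 to 3 passed without 1 library, the 3 without wildtype replicate 2.

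No pairing of cultures by replicate number was assumed in the main fit. Deviations of same-numbered libraries from their genotype means correlated at 0.207, -0.189 and 0.111, and not every library correlated best with its own number. With 3 libraries per genotype and wildtype replicate 2 far from the others, these values cannot decide whether the cultures were paired. With the replicate block, 2 genes and 0 protocadherins passed, and *Pcdhac2* turned to 0.57.

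Among named protocadherins the sign turned in fits without 1 library, whose log2 fold changes ranged from -0.34 to 0.94 for *Pcdh15*, from -3.12 to 0.48 for *Pcdh20*, from -0.48 to 0.13 for *Pcdh7*, from -3.10 to 2.93 for *Pcdhac2* and from -0.25 to 0.74 for *Pcdhgb6*, each turning without wildtype replicate 2. Likewise they ranged from -0.042 to 0.50 for *Pcdh9*, which turned without wildtype replicate 1, and from -0.053 to 0.39 for *Pcdhgc3*, which turned without wildtype replicate 1 (-0.053) or 3 (-0.029). *Pcdhac2* also turned with limma-voom (0.94), and DESeq2 gave no p for it or for *Pcdh20*. The log2 ratio of summed counts, -1.84 for alpha genes and -1.18 for the 3 other single genes, ranged from -2.43 to 0.80 and from -1.57 to -0.15 without 1 library, with 0.80 and -0.15 without wildtype replicate 2. The causes were not tested.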
